A study of Mus musculus with 20 samples.

Results

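The genes described here were 6 subunits of the GABA-A receptor (Gabra6, Gabrd, Gabrb2, Gabra2, Gabrb1 and Gabrg1) and Gphn, which encodes gephyrin. They were chosen by name, as 7 of the 29200 genes in the count table, and all 7 were among the 12153 tested genes, those whose mean count reached 50 or more. GABA-A receptors are chloride channels built of 5 subunits, and their subunit makeup sets where they sit and how they respond to GABA. Cerebellar granule cells are known for the alpha 6 subunit, which joins the delta subunit in receptors outside the synapse that give a standing inhibition. Gephyrin is the scaffold that holds many GABA-A and glycine receptors under the synaptic membrane, and it also carries out the last steps of molybdenum cofactor synthesis. Gabra6, Gabrd and Gabrb2, the beta subunit most used by granule cells, were taken as granule-cell subunits and set against Gabra2, Gabrb1 and Gabrg1.

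RNA-seq of whole cerebellum came from male mice on the C57BL6/N strain in 4 groups of 5: WT/WT at 2 months, 304Q/304Q at 2 months, WT/WT at 12 months and 304Q/304Q at 12 months. WT/WT mice carried the unexpanded ataxin-3 gene on both alleles. In 304Q/304Q mice both alleles of mouse Atxn3 carried a knocked-in, interrupted glutamine repeat of 304 units, under the gene's own regulatory elements and from a single founder line, as a model of spinocerebellar ataxia type 3. The questions were how genotype acted before and after symptoms and how each genotype aged. The libraries held 11385380 to 27636687 counts, with replicate 1 of the 304Q/304Q mice at 2 months as the deepest. Of 6 forebrain markers, 5 had mean counts of at most 22.4 and Neurod6 had 124, whereas the granule cell markers Cbln3 and Zic1 had mean counts of 31000 and 12600. Libraries differed in how counts followed the GC content of genes. This GC slope, the change in log2 count per 10 percentage points of GC, ran from -0.204 to 0.219, and it is given beside the results it moved with.

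The 6 subunit genes lay in 3 stretches of the genome (GRCm38). Gabrg1 (ENSMUSG00000001260, chr5:70751047-70842617, minus strand), Gabra2 (ENSMUSG00000000560, chr5:70957597-71095849, minus strand) and Gabrb1 (ENSMUSG00000029212, chr5:71658113-72149037, plus strand) lay in 1 cluster, with 114979 and 562263 bases between neighbours. Gabra6 (ENSMUSG00000020428, chr11:42306437-42321072, minus strand) and Gabrb2 (ENSMUSG00000007653, chr11:42419757-42629028, plus strand) lay 98684 bases apart and were read away from each other. Gabrd (ENSMUSG00000029054, chr4:155384980-155398112, minus strand) and Gphn (ENSMUSG00000047454, chr12:78226379-78684772, plus strand) lay alone. Gabrb1 overlapped Gabra4 on the other strand and 3 predicted genes, and Gphn overlapped 6 predicted genes. The strand setting of the counting was not given in the sources used here, so reads in the shared parts could belong to either gene and the values of Gabrb1 and Gphn carry that uncertainty. The annotated transcripts of Gabrg1 had a GC content of 35.1%, those of Gabra2 38.5%, Gabra6 40.8%, Gabrb1 41.3%, Gabrb2 43.3%, Gphn 46.7% and Gabrd 56.3%, against a median of 50.2% over the tested genes. Gabrd was thus the only one of the 7 above that median, and 1.36% of tested genes had a lower GC content than Gabra2.

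Promoter windows are shown for 4 genes: Gabra6 and Gabra2, whose levels followed each other most closely across libraries, and Gabrb2 and Gabrb1, the members called with age in WT/WT mice. Each window runs from 250 bases before to 50 after a RefSeq start (GRCm38.p6), printed 5′ to 3′ on the gene's strand. Capitals mark the half-site of nuclear factor I (TTGGC) and the TATA box (TATAAA), searched on both strands, so a half-site on the other strand reads GCCAA. Nuclear factor I is known for its role in the maturation of granule cells and their expression of Gabra6. For Gabrb2 and Gabrb1 the most upstream of several starts is given.
Gabra6 chr11:42321023-42321322: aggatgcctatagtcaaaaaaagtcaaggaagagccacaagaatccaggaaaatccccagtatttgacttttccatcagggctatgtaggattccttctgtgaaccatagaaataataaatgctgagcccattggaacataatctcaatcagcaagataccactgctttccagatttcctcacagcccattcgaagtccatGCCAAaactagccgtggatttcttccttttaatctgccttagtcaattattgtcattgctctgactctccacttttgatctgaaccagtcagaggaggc
Gabra2 chr5:71095800-71096099: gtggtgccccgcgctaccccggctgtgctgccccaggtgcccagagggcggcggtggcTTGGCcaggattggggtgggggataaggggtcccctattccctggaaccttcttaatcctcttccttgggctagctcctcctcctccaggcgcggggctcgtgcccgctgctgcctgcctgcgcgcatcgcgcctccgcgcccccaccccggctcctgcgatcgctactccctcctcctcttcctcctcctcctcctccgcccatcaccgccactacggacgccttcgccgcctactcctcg
Gabrb2 chr11:42420190-42420489: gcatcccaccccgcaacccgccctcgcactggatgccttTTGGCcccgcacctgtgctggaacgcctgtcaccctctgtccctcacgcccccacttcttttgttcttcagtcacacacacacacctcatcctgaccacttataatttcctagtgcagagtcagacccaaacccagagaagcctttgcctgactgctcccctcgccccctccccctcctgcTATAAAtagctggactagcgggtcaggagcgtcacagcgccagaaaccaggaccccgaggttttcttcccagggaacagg
Gabrb1 chr5:71657671-71657970: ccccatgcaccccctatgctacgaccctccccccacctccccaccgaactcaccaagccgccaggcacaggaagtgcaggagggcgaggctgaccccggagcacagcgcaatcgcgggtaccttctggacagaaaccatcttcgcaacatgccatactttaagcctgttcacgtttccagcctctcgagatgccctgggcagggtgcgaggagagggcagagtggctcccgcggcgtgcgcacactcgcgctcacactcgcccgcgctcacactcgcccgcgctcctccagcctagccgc

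The windows of Gabra6, Gabra2 and Gabrb2 each held 1 half-site, and that of Gabrb1 held none. This depends on the start, since the window of the second Gabrb1 start held 1 half-site and those of the 2 other Gabrb2 starts held 0. A half-site occurs in 46.7% of the 32851 RefSeq promoter windows of the same length, so these matches are common. Only the Gabrb2 window held a TATA box, which 13.6% of windows do. The GC content was 42.0% in the Gabra6 window, 59.0% in Gabrb2, 66.0% in Gabrb1 and 70.0% in Gabra2, against a median of 52.7% over all windows. The windows of Gabra6 and Gabra2 therefore stood on either side of that median. No other feature of these windows was searched.

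Per length of exon, Gabra6 was by far the most abundant of the 7 transcripts. Its level was 287 ± 43.7 CPM (counts scaled to library size) per kilobase (SD, n = 20), from 230 to 387. Gabrd stood at 56.6 ± 5.99, Gphn at 26.2 ± 1.84 and Gabrb2 at 24.9 ± 5.54 on the same scale. Gabra2 had a level of 8.18 ± 1.3, Gabrb1 of 4.4 ± 0.678 and Gabrg1 of 1.26 ± 0.326 CPM per kilobase. Every step in this order held in all 20 libraries except that between Gphn and Gabrb2, where Gphn was higher in 13 of 20 and the ranges overlapped. In bulk tissue, fewer cells of a type and less RNA per cell cannot be told apart, so these levels are those of the whole cerebellum. Among 12 other GABA-A subunit genes in the table, Gabra3 was at 4.99 and Gabra4 at 4.48 CPM per kilobase. Of the others, 7 subunits, which include the rho and epsilon subunits, had mean counts of at most 27.8 and were not tested.

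The 3 granule-cell subunits together made up 96.4% ± 0.147 of the summed per-length level of the 6 subunits in WT/WT mice at 2 months and 96.2% ± 0.201 in their 304Q/304Q counterparts (SD, n = 5). At 12 months the share was 96.5% ± 0.271 for WT/WT against 96.4% ± 0.214 for 304Q/304Q mice. The share thus stayed between 96.0% and 96.7% in every library, and the groups overlapped. Of the summed level of all 6 subunits, Gabra6 took 75.2% ± 3.77 in WT/WT mice at 2 months and 73.6% ± 1.98 at 12 months, and 75.2% ± 1.41 and 75.4% ± 2.29 in 304Q/304Q mice. The split between the alpha 6 and delta transcripts varied more than the share of the 3 granule-cell subunits together. The ratio of Gabra6 to Gabrd ran from 3.69 to 7.24 over the 20 libraries, with means of 5.69 ± 1.64 and 4.46 ± 0.974 in WT/WT mice at 2 and 12 months, and 5.19 ± 0.733 and 5.25 ± 0.508 in 304Q/304Q mice. The 2 genes followed the GC slope of the libraries in opposite directions. With group means subtracted, their log2 levels correlated with it at -0.937 (Gabra6) and 0.705 (Gabrd) over 20 libraries. The ratio of Gabra6 to Gabrd was not corrected for this slope. These shares and ratios are descriptions and were not tested.

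Gabra6 encodes the alpha subunit that marks mature granule cells. In normalized counts, that is counts scaled to the mean effective library size, replicates 1 to 5 of WT/WT mice at 2 months had 13762, 12805, 11990, 9784 and 9188. Those of 304Q/304Q mice at 2 months had 10409, 9457, 10293, 10889 and 12187. The WT/WT group at 2 months was the most spread, and the 304Q/304Q values fell within its range. At 12 months the WT/WT replicates had 11108, 8202, 8468, 8558 and 8945, and the 304Q/304Q replicates 9416, 9700, 10251, 10684 and 8242. Replicate 1 of the WT/WT mice at 12 months stood above the other 4 of its group, which lay within 8202 to 8945. Gabrd encodes the delta subunit of receptors outside the synapse. Its normalized counts were 2196, 2212, 2066, 2749 and 2853 in WT/WT mice at 2 months, and 2533, 2229, 2317, 2666 and 2175 in 304Q/304Q mice at 2 months. At 12 months they were 2086, 2358, 2395, 2680 and 2369 in WT/WT, and 2139, 2087, 2237, 2074 and 2095 in 304Q/304Q mice. The 304Q/304Q mice at 12 months were the tightest group of this gene, with a coefficient of variation of 3.13%, and overlapped the WT/WT mice through replicate 1.

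Gabrb2 encodes the beta 2 subunit, which pairs with alpha 6 in granule cells. Its normalized counts were 3626, 2777, 2594, 2385 and 2440 in WT/WT mice at 2 months, and 2277, 2406, 2253, 1945 and 2716 in 304Q/304Q mice at 2 months. At 12 months the WT/WT replicates had 2510, 1869, 1460, 1625 and 1793, and the 304Q/304Q replicates 2238, 1952, 1518, 2322 and 2540. In WT/WT mice 4 of 5 values at 12 months lay below every value at 2 months, and replicate 1 at 12 months was the exception. Gabra2, an alpha subunit prominent in forebrain and known in cerebellum from Bergmann glia, had 1214, 1052, 950.9, 857.1 and 803.5 normalized counts in WT/WT mice at 2 months and 878.4, 950.3, 978.2, 1056 and 1040 in 304Q/304Q mice at 2 months. At 12 months it had 1049, 752.9, 719.1, 683.7 and 703.6 in WT/WT and 751, 843.7, 917.3, 867.4 and 814.7 in 304Q/304Q mice. Replicate 1 of the WT/WT mice at 12 months was again the high one, and the other 4 lay below every WT/WT value at 2 months.

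Gabrb1 encodes the beta 1 subunit, which in brain is found in astrocytes as well as neurons. Its normalized counts were 1146, 1041, 1016, 992 and 800.7 in WT/WT mice at 2 months and 826.5, 911.7, 887.6, 872.7 and 1101 in 304Q/304Q mice at 2 months. At 12 months they were 965.2, 743, 682.8, 724.9 and 851.2 in WT/WT, and 739.7, 816, 704.9, 799.9 and 807.7 in 304Q/304Q mice. All 5 values of 304Q/304Q mice at 12 months lay below all 5 at 2 months, and in WT/WT mice the ages overlapped. Gabrg1, the gamma 1 subunit, which is also found in Bergmann glia, was the least abundant member, with 76 to 287 raw counts per library. Its normalized counts ran from 119 to 208 in WT/WT mice at 2 months (median 140), from 92.6 to 216 in 304Q/304Q at 2 months (147), from 81.2 to 167 in WT/WT at 12 months (113) and from 120 to 165 in 304Q/304Q at 12 months (149). All 4 groups of Gabrg1 overlapped. Gphn varied least of the 7 over all 20 libraries, with normalized counts of 1599, 1482, 1341, 1509 and 1354 in WT/WT mice at 2 months and 1517, 1460, 1472, 1412 and 1552 in 304Q/304Q mice at 2 months. At 12 months its replicates had 1355, 1279, 1290, 1334 and 1314 in WT/WT and 1363, 1256, 1306, 1457 and 1406 in 304Q/304Q mice. The genotypes overlapped at both ages.

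**Figure D1:**
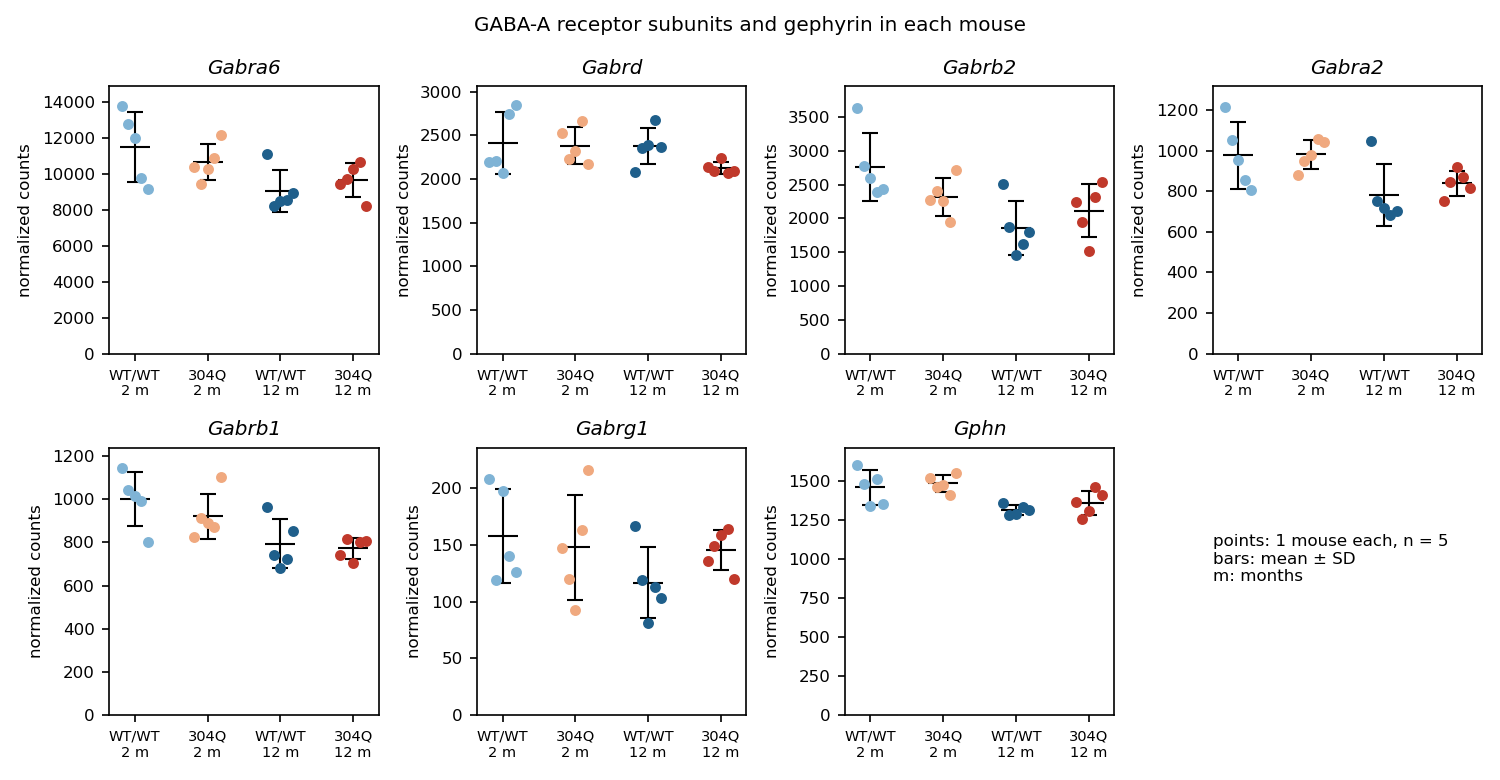
Normalized counts of the 7 genes (vertical axes from 0) in the 4 groups, with 1 point per mouse and bars for the mean ± SD (n = 5). The genotypes overlap for every gene at both ages. In WT/WT mice at 12 months the left point, replicate 1, is the highest of its group for every gene but Gabrd. The values are 11108 (Gabra6), 2510 (Gabrb2), 1049 (Gabra2), 965.2 (Gabrb1), 167 (Gabrg1) and 1355 (Gphn). For Gabrd it is the lowest (2086).

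No member was called between genotypes at 2 months. In edgeR (quasi-likelihood test, p adjusted by Benjamini-Hochberg over all tested genes), 0 of 7 were called at an adjusted p of at most 0.05, where 0.0823% of all tested genes were called in either direction. No member had an unadjusted p under 0.05 in that test, and DESeq2 called none. The log2 fold changes ran from -0.25 (Gabrb2, SE 0.157, adjusted p = 0.937) to 0.03 (Gphn, SE 0.056, adjusted p = 0.979), with a median of -0.09 against -0.002 over all tested genes. Gabra6 was at -0.11 (SE 0.111), with 11510 ± 1959 normalized counts for WT/WT and 10650 ± 1004 for 304Q/304Q mice (SD, n = 5). Gabrd was at -0.02 (SE 0.0791), with a 95% interval of -0.18 to 0.14. The 7 intervals spanned folds from 0.667 to 1.25, so larger changes than these were outside every interval. No member separated the genotypes without overlap, which 1.05% of tested genes did.

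At 12 months, when symptoms are present, again 0 of 7 members were called, although 12.3% of tested genes were (5.09% up and 7.21% down with the 304Q/304Q genotype). The count of members at an unadjusted p under 0.05 was 0, and DESeq2 without surrogate variables called none. The changes ran from -0.16 for Gabrd (SE 0.0795, adjusted p = 0.192) to 0.32 for Gabrg1 (SE 0.207, adjusted p = 0.336), with a median of 0.09. Gabrd had 2378 ± 210 normalized counts for WT/WT and 2126 ± 66.6 for 304Q/304Q mice, with an interval of -0.32 to 0.00, and it was called in 2 of 9 alternatives, both with surrogate variables (log2 fold change -0.20, adjusted p = 0.0252 in edgeR). With the GC trend removed Gabrd was at -0.08 (adjusted p = 0.44). The value of Gabrg1 went from 0.32 to 0.03 with the GC trend removed and to 0.03 and 0.04 with surrogate variables in edgeR and DESeq2. Gabra6 was at 0.09 (interval -0.14 to 0.33) and Gabrb2 at 0.19 (-0.14 to 0.53). Gabra2 was at 0.10, Gabrb1 at -0.04 and Gphn at 0.05 (interval -0.07 to 0.16). The sign for Gabra6 turned to -0.07 (adjusted p = 0.373), and that for Gabra2 to -0.10 (adjusted p = 0.358), once the GC trend of each library was removed. The groups overlapped for all 7, where 8.94% of tested genes had no overlap. The granule-cell subunits had a median change of 0.09 and the other subunits of 0.10, each over 3 genes.

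**Figure D2:**
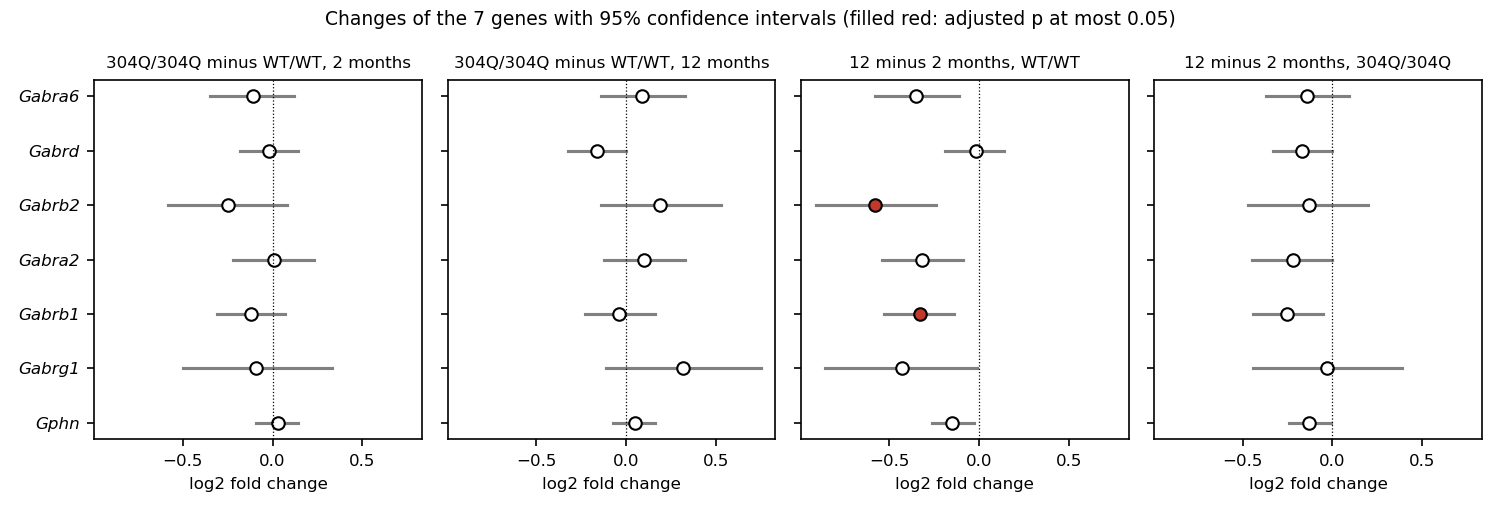
Log2 fold changes (horizontal axes) of the 7 genes in 4 comparisons, as points with 95% confidence intervals from edgeR; filled red points have an adjusted p of at most 0.05. Only Gabrb2 (-0.58) and Gabrb1 (-0.33), with age in WT/WT mice, are filled.

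In WT/WT mice all 7 members had a lower mean at 12 than at 2 months, and 2 fell by the test. Both are beta subunits. Gabrb2 went from 2764 ± 505 to 1852 ± 401 normalized counts, a log2 fold change of -0.58 (SE 0.158, adjusted p = 0.0263), with a fold of 0.67 and an interval of 0.531 to 0.845. Gabrb1 went from 999 ± 125 to 793 ± 114, a log2 fold change of -0.33 (SE 0.0947, adjusted p = 0.0226). Of all tested genes 11.3% were called with age in WT/WT mice (6.09% higher, 5.25% lower), and the median of the 7 was -0.33 against 0.002 over all tested genes. Gabra6 was at -0.35 (SE 0.111, adjusted p = 0.0526), Gabra2 at -0.32 (SE 0.109, adjusted p = 0.059) and Gphn at -0.15 (SE 0.0564, adjusted p = 0.0847), none past the threshold. Gabrg1 was at -0.43 (SE 0.206, adjusted p = 0.173), and Gabrd was at -0.02 (SE 0.0792, adjusted p = 0.885). No member separated the ages without overlap in WT/WT mice, which 6.57% of tested genes did.

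Single libraries decided both calls. Gabrb2 lost its call without replicate 1 or 2 of the WT/WT mice at 2 months (adjusted p = 0.0835 and 0.0554) or replicate 3, 4 or 5 of those at 12 months (0.0816, 0.0636 and 0.0611). Gabrb1 lost its call without replicate 1, 2 or 3 of the WT/WT mice at 2 months or replicate 2, 3 or 4 of those at 12 months, with adjusted p between 0.05 and 0.085. The direction held each time, from -0.71 to -0.46 for Gabrb2 and from -0.41 to -0.28 for Gabrb1. Without replicate 1 of the WT/WT mice at 12 months, the library that stood apart, 5 members were called, namely Gabrb2 (-0.71), Gabra2 (-0.45), Gabra6 (-0.43), Gabrb1 (-0.41) and Gabrg1 (-0.60). Without replicate 5 of the WT/WT mice at 2 months, 5 members were also called, namely Gabrb2, Gabrb1, Gabra6, Gabra2 and Gphn. Without replicate 4 of that group, 4 were called, namely Gabrb2 (-0.63), Gabrb1 (-0.33), Gabra6 (-0.40) and Gabra2 (-0.36). The share of all tested genes called with the same library left out is not given here. These counts therefore do not show whether the members differed from other genes.

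The members' levels moved with the GC slope of the libraries. In WT/WT mice at 2 months, replicates 1 to 3 had slopes of -0.204, -0.133 and -0.136 and the 3 highest Gabra6 counts, whereas replicates 4 and 5 had slopes of 0.079 and 0.0624 and the 2 highest Gabrd counts. In WT/WT mice at 12 months, replicates 2 to 5 had slopes of 0.137 to 0.219, and replicate 1 had -0.0802. Replicate 1 had the highest normalized counts of its group for every member but Gabrd, and the lowest for Gabrd. With group means subtracted, the correlation of log2 level with this slope over the 20 libraries was -0.937 for Gabra6, -0.853 for Gabra2, -0.76 for Gabrb1, -0.759 for Gabrg1, -0.598 for Gabrb2, -0.309 for Gphn and 0.705 for Gabrd. These are descriptions, since the libraries of a group share their handling and the slope is computed from the same counts.

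Removing the GC trend of each library moved the changes with age in WT/WT mice to -0.45 for Gabrb2 (adjusted p = 0.0513) and -0.16 for Gabrb1 (adjusted p = 0.185), neither of them called. Gabra6 was then at -0.15 and called (adjusted p = 0.0399), Gabra2 at -0.08, Gabrg1 at -0.11 and Gphn at -0.09. The size of the change of Gabrb1, Gabra6, Gabra2, Gabrg1 and Gphn was thus over 1.5 times smaller with the trend removed, whereas that of Gabrb2 moved less. Gabrd moved the other way, from -0.02 to -0.12 (adjusted p = 0.245), and was at -0.08 with surrogate variables. The choroid plexus lies next to the cerebellum. Its markers had a summed level of 23.5 to 29.9 CPM at 2 months and 30.3 to 2100 at 12 months in WT/WT mice, with 0 of 4 tested markers called and 3 at an unadjusted p under 0.05 in edgeR. Their part in the members' changes was not tested. Granule cell markers were lower with age too, with 5 of 16 lower and 1 higher by the test and a median of -0.18 in WT/WT mice. Their summed level went from a median of 10400 to 9030 CPM, and their part was not tested either. Of 12 Bergmann glia and astrocyte markers, 3 were called lower and 0 higher in WT/WT mice (median 0.01). The summed level of these glial markers was 4200 to 4740 CPM at 2 and 4070 to 4260 CPM at 12 months. Purkinje markers had 0 of 12 lower and 2 higher (median 0.05), and oligodendrocyte markers 3 of 10 lower and 0 higher (median -0.24).

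**Figure D3:**
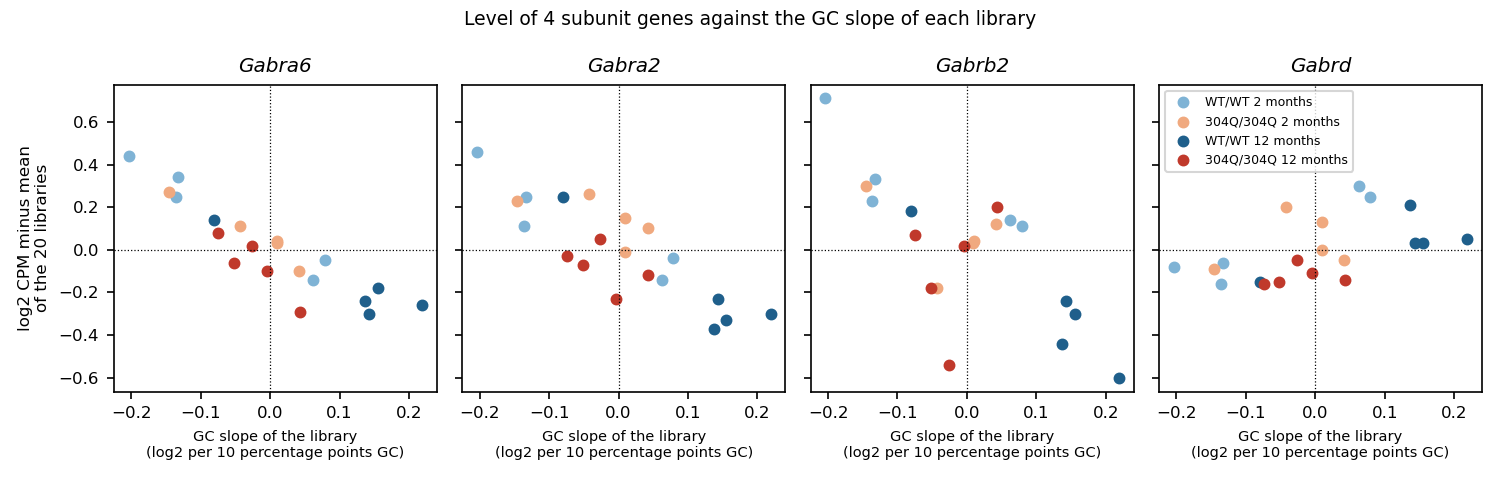
Log2 CPM minus the mean of the 20 libraries (vertical axis) against the GC slope of each library (horizontal axis, log2 per 10 percentage points of GC) for Gabra6, Gabra2, Gabrb2 and Gabrd, with 1 point per library coloured by group. Gabra6 and Gabra2 run down from left to right across all groups, and Gabrd runs upward within the WT/WT groups.

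In 304Q/304Q mice all 7 members also had a lower mean at 12 than at 2 months, and 0 of 7 were called, where 7.2% of tested genes were called and 4.15% were lower. At an unadjusted p under 0.05 there were 4, and DESeq2 without surrogate variables called none. Gabrb1 had the lowest adjusted p, with 920 ± 106 normalized counts at 2 and 774 ± 48.8 at 12 months (log2 fold change -0.25, SE 0.0946, adjusted p = 0.122). It was the 1 member with no overlap between the ages, which 7.8% of tested genes had. Gabra2 was at -0.22 (SE 0.108, adjusted p = 0.26), Gabrd at -0.17 (SE 0.0793, adjusted p = 0.254), Gabra6 at -0.14 (SE 0.111) and Gphn at -0.13 (SE 0.0562). Gabrb2, at -0.58 in WT/WT mice, was at -0.13 (SE 0.158) in 304Q/304Q mice. Gabrg1 was at -0.03 (SE 0.202). With 3 surrogate variables, 4 members were called as lower with age in 304Q/304Q mice (Gabra6 -0.14, Gabrd -0.21, Gabra2 -0.22 and Gabrb1 -0.23), and with the GC trend removed 3 were (Gabra6 -0.16, Gabra2 -0.25 and Gabrb1 -0.26). Of these 4, Gabrd moved most between the fits, from -0.17 to -0.21, and Gabrb2, not called, went from -0.13 to -0.06 with surrogate variables. Over all tested genes, the fits with surrogate variables called 883 (DESeq2) and 840 (edgeR) of 12153 lower. With the GC trend removed, 581 of 12140 genes were called lower. The GC slopes of the 304Q/304Q groups, from -0.146 to 0.042 at 2 and -0.0744 to 0.0427 at 12 months, were more alike than those of the WT/WT groups. Markers of some cell types were also lower with age in 304Q/304Q mice. Of Bergmann glia and astrocyte markers, 6 of 12 were called lower and 1 higher (median -0.24). Lower calls were made for 4 of 16 granule cell markers (median -0.12), 7 of 12 Purkinje markers (median -0.28) and 6 of 10 oligodendrocyte markers (median -0.52). Microglia markers went the other way, with 3 of 5 called higher and 0 lower (median 0.58). All 4 tested choroid plexus markers had a change above 0 (median 0.51), with 0 called. The summed level of Bergmann glia and astrocyte markers was 4150 to 4670 CPM at 2 and 3800 to 3940 CPM at 12 months, and that of granule cell markers was 9110 to 10300 CPM and 8420 to 9260 CPM. The part of these cells was not tested.

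**Figure D4:**
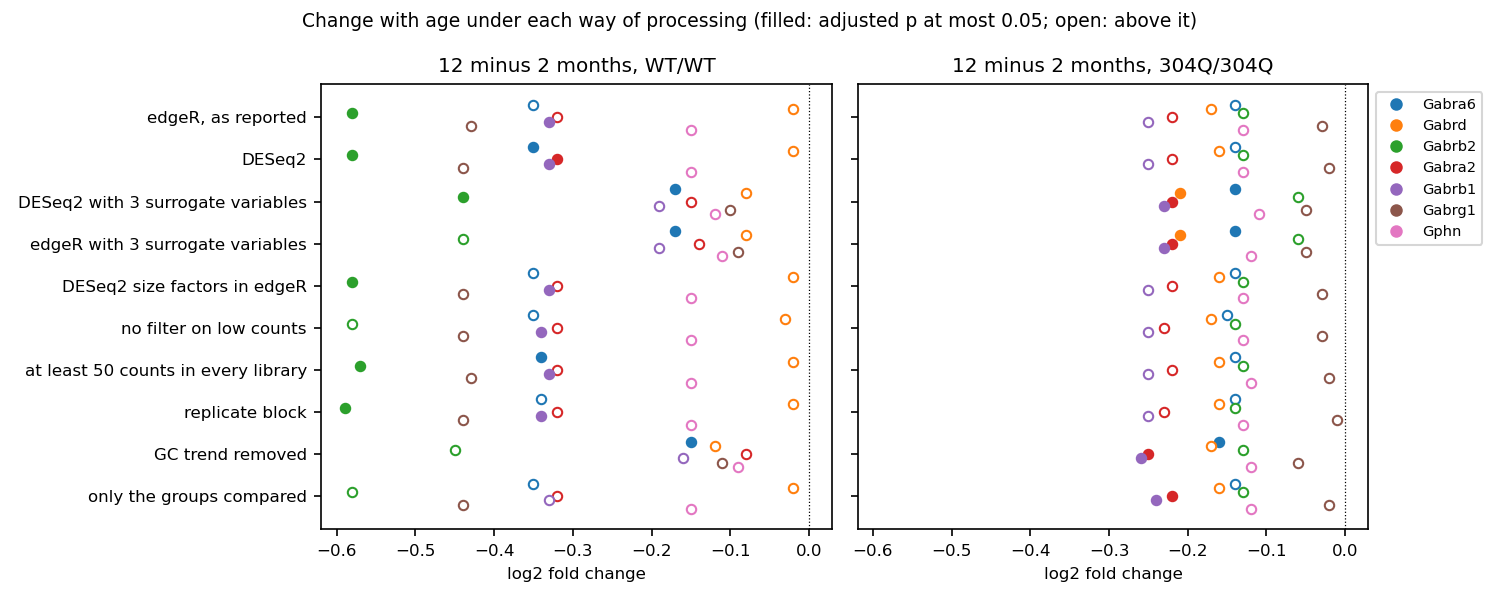
Log2 fold change with age (horizontal axes) in WT/WT and 304Q/304Q mice for the 7 genes (colours) under the reported and 9 other ways of processing (rows); filled points have an adjusted p of at most 0.05. Every point lies left of 0, and in WT/WT mice Gabrb1 moves from -0.33 to -0.16 with the GC trend removed.

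The effect of age was not shown to differ between genotypes for any member. In the test of the interaction 0 of 7 were called, where 2.04% of tested genes were, and no member had an unadjusted p under 0.05 or a call in DESeq2. Gabrb2 had the lowest adjusted p (log2 difference 0.45, SE 0.223, interval -0.03 to 0.92, adjusted p = 0.352). Gabrg1 was at 0.41 (SE 0.288, adjusted p = 0.508), and at 0.06 with the GC trend removed and 0.04 and 0.05 with surrogate variables. Gabra6 was at 0.20 (SE 0.157, adjusted p = 0.549) and Gabrd at -0.14 (SE 0.112, adjusted p = 0.553). Gabra2, Gabrb1 and Gphn lay between 0.02 and 0.09. The comparisons with genotype and with age share groups, so their values are given side by side and not as separate evidence.

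Across libraries, with group means subtracted, the low-GC members varied in the same direction and against Gabrd. Gabra6 correlated with Gabra2 at 0.831, with Gabrb1 at 0.693 and with Gabrg1 at 0.667 (20 libraries), and with Gabrd at -0.638. Gabrb2 correlated with Gabrb1 at 0.748 and with Gphn at 0.63. Gabrd had negative values with all 6 others, down to -0.725 with Gabrb1. Over the genome, the tested genes most like Gabra6 were Gpr137c (0.963), Nxt2 (0.96) and Cd164 (0.955), and those most like Gabrb2 were Aff4 (0.961), Kat6a (0.943) and Med13l (0.938). Gabrd was most like Ndufs6 (0.89), a subunit of respiratory complex I, Tubb5 (0.873), a beta tubulin, and Rhbdf1 (0.872). Gabra2 was most like G3bp2 (0.942), Hccs (0.928) and Eps15 (0.922), and Gabrb1 was most like Cdc27 (0.904), Katnal1 (0.894) and Plcxd2 (0.889). For Gabrg1 these were Fnip1 (0.885), Mef2c (0.88) and Nlgn1 (0.859), and for Gphn they were Sphkap (0.87), Lingo4 (0.824) and Map7d2 (0.82). The partners of Gabrd had a GC content of 52.9% (Ndufs6), 52.1% (Tubb5) and 59.4% (Rhbdf1), and those of Gabra6 had 36.3% to 46.3%. Those of Gabra2 had 40.6% to 44.4% and those of Gabrg1 39.8% to 42.7%. The ranges were wider for the partners of Gabrb2 (43.3% to 52.3%), Gabrb1 (40.8% to 50.2%) and Gphn (46.1% to 54.8%). The values of all genes in a library carry its depth and GC slope, so these values describe likeness across libraries and carry no p.

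Other genes of inhibitory transmission were called between genotypes at 12 months. At 2 months 0 genes of these lists were called in edgeR or DESeq2, with 1 gene each of the anchoring and the GABA synthesis lists at an unadjusted p under 0.05. Of the 5 other GABA-A subunits tested, 0 were called at 12 months in edgeR or DESeq2, with Gabra3 at a log2 fold change of -0.20 and 1 gene at an unadjusted p under 0.05. In the list of anchoring and trafficking genes, 2 of 19 rose and 2 fell, a median of -0.04, where 5.09% of all tested genes rose and 7.21% fell. Slitrk3, a postsynaptic adhesion protein of inhibitory synapses, had the largest rise of the list, with 207 ± 35.8 normalized counts in WT/WT mice against 377 ± 28.5 (log2 fold change 0.86, SE 0.117, adjusted p = 6.95e-06), with no overlap. Kif5a, a kinesin motor that carries GABA-A receptors, rose by 0.21 (SE 0.0425), and Iqsec3, an exchange factor that binds gephyrin, fell by 0.25 (SE 0.0606). Dynll1, a dynein light chain that binds gephyrin, fell by 0.39 (SE 0.127, adjusted p = 0.0481). Nlgn2 (neuroligin 2), an adhesion protein of inhibitory synapses, was at -0.06 (adjusted p = 0.391), beside Gphn at 0.05.

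Genes that make, load and break down GABA fell in part in 304Q/304Q mice at 12 months, 3 of 8 with 0 higher, a median of -0.18. Gad1, which makes most GABA in the cell body, fell from 8099 ± 287 to 6887 ± 186 normalized counts (log2 fold change -0.23, SE 0.0369), with no overlap. Slc32a1, the vesicular transporter of GABA and glycine, fell by 0.31 (SE 0.07) from 1988 ± 197 to 1607 ± 93.5, and Abat, which breaks GABA down, fell by 0.16 (SE 0.0453). In the list of GABA-B receptor and chloride transport genes, 2 of 6 fell and 1 rose, a median of -0.03. The GABA-B receptor subunits Gabbr2 and Gabbr1 fell by 0.29 (SE 0.0469) and 0.12 (SE 0.0365), Kctd8, an auxiliary GABA-B subunit, rose by 0.40 (SE 0.122), and the chloride exporter Slc12a5 was at -0.09 (adjusted p = 0.224). Of 3 tested genes of glycine receptors and transport, Slc6a9, the glial glycine transporter, fell by 0.38 (SE 0.0669). Of 6 genes of molybdenum cofactor synthesis and use, the pathway of the enzyme activity of gephyrin, Xdh (xanthine dehydrogenase) fell by 0.69 (SE 0.171) and Mocs2 rose by 0.24 (SE 0.0786).

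Not all of these calls were stable. Slitrk3, Kif5a, Iqsec3, Gad1, Slc32a1, Gabbr2, Slc6a9 and Xdh stayed called at 12 months without any 1 of the 20 libraries and under all 9 alternatives. Dynll1 was lost without 13 of the 20 libraries (WT/WT 2 months 1, 3, 4 and 5, 304Q/304Q 2 months 1, 2 and 5, WT/WT 12 months 1, 3 and 5, 304Q/304Q 12 months 1, 2 and 4), with -0.40 to -0.29. Mocs2 was lost without WT/WT 12 months 1, 2, 3 or 5 or 304Q/304Q 12 months 2, 3 or 5 (0.19 to 0.25), and Kctd8 without replicate 2, 3 or 4 of either genotype at 12 months (0.32 to 0.38). Gabbr1 was lost without WT/WT 12 months 2 or 5 or 304Q/304Q 12 months 1, 2 or 3 (-0.12 to -0.10), and Abat without WT/WT 12 months 2 or 304Q/304Q 12 months 3 (-0.14 to -0.13). Of the 9 alternatives, Dynll1 was called in 3 (-0.39 to -0.20, adjusted p up to 0.497), Mocs2 in 3 (0.15 to 0.26, up to 0.282), Gabbr1 in 4 (-0.12 to -0.06, up to 0.4), Abat in 7 and Kctd8 in 8. Markers of Purkinje cells, which express Gad1, Slc32a1 and Gabbr2, moved with these genes: 9 of 12 fell at 12 months with a median of -0.32, and their summed level was 8050 to 8870 CPM in WT/WT and 6350 to 6950 in 304Q/304Q mice. Interneuron markers fell in 3 of 12 and rose in 1, and 10 of 12 had a change below 0 (median -0.23). Their summed level was 1580 to 1780 CPM in WT/WT and 1370 to 1410 CPM in 304Q/304Q mice. Granule cell markers fell in 1 of 16 and rose in 0 (median -0.08). Oligodendrocyte markers fell in 5 of 10 (median -0.36), with a summed level of 5250 to 5980 CPM for WT/WT and 3450 to 4770 for 304Q/304Q mice, and Bergmann glia and astrocyte markers fell in 3 of 12 (median -0.09), with 4070 to 4260 and 3800 to 3940. The part of these cell types in the changes was not tested.

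**Figure D5:**
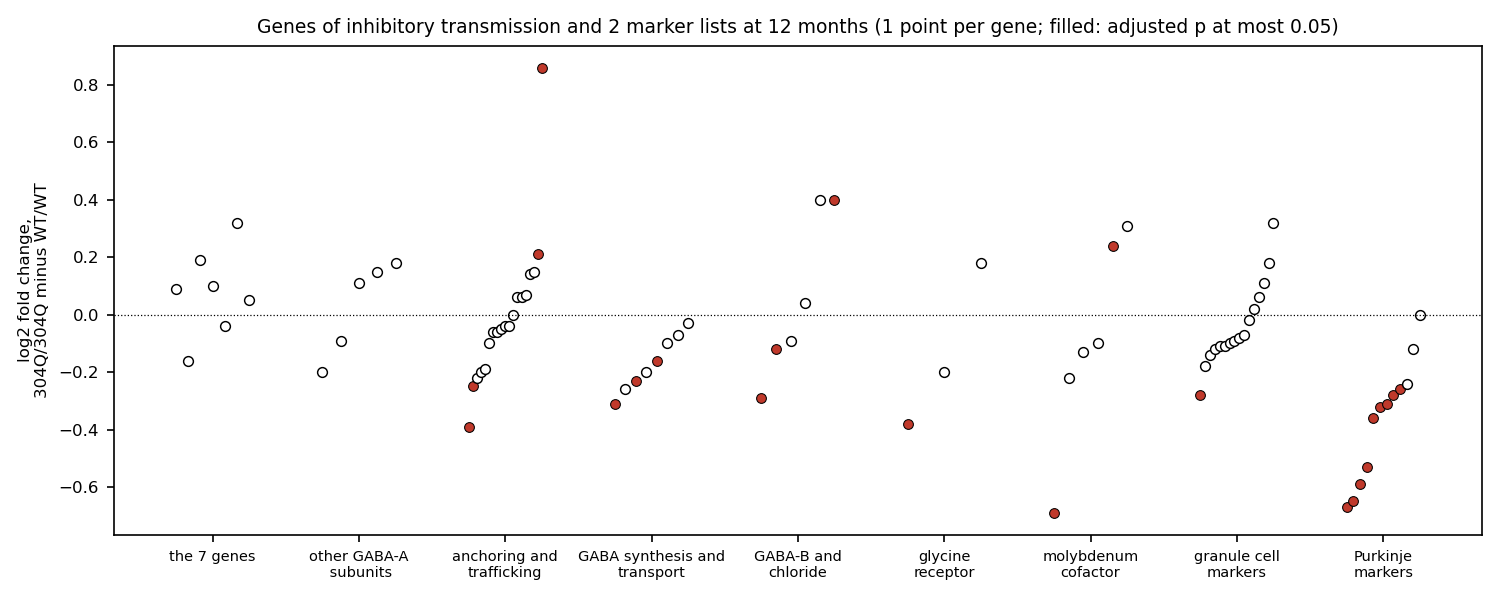
Log2 fold change between genotypes at 12 months (vertical axis, 304Q/304Q minus WT/WT), with 1 point per tested gene, for the 7 genes, 6 pathway lists and the granule cell and Purkinje cell marker lists; filled points have an adjusted p of at most 0.05. None of the 7 genes is filled, 9 of 12 Purkinje cell markers are filled and below 0, and the highest point is Slitrk3 (0.86).

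With age in WT/WT mice Gabra3, an alpha subunit named after its values were seen, rose by 0.32 (SE 0.102, adjusted p = 0.0391). It was lost without WT/WT 2 months 2, 3 or 4 or WT/WT 12 months 1, 2, 3 or 4 (0.25 to 0.34), and was called in 4 of 9 alternatives. Anchoring and trafficking genes had 4 of 19 higher and 1 lower with age in WT/WT mice, where 6.09% of all tested genes were higher and 5.25% lower, and 1 higher and 2 lower with the GC trend removed. In 304Q/304Q mice 3 of 19 were higher and 0 lower, where 7.2% of all tested genes were called in either direction. Genes of GABA synthesis and transport had 1 of 8 higher in WT/WT and 1 lower in 304Q/304Q mice. Of the GABA-B and chloride genes, 1 of 6 was lower with age for WT/WT and 2 for 304Q/304Q mice, and of the glycine genes 1 of 3 and 2 of 3. Molybdenum cofactor genes had 2 of 6 higher with age for WT/WT and 0 for 304Q/304Q mice.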

How the data were processed

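Cerebellar RNA-seq counts of 20 mice in 4 groups of 5 were analysed. Per the labels, RNA was enriched for polyadenylated transcripts and made into stranded TruSeq libraries. The authors aligned the reads with STAR (version 2.4.5b in the submitters' processing notes) against an Ensembl annotation of GRCm38, used Rsubread to count reads in each gene, and deposited the raw counts without normalization. The strand setting of the counting was not given in the sources used here, and 0 columns were left unused. The labels of WT/WT mice name ataxin-2, whereas the study describes Atxn3. Gene names, positions and exon lengths came from a GENCODE annotation of GRCm38 and GC content from its transcript sequences, and 50 of the 29200 gene identifiers had no symbol there.

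Counts were tested with edgeR 4.0.16 (TMM scaling, robust quasi-likelihood fit, 1 term per group, all 20 libraries) in R 4.3.3, over the 12153 genes whose mean count reached 50, which held 99.3% of all counts. P-values were adjusted by Benjamini-Hochberg over all tested genes, and a gene was called at an adjusted p of at most 0.05. The common biological coefficient of variation was 0.113. Intervals are 95% intervals of the fit. Levels per length are TMM-scaled CPM per kilobase of exon. Likeness was Pearson's r of log2 CPM with group means subtracted, and the 3 highest genes were named for each member. Pathway genes were named where called between genotypes, at most 4 per list and comparison. Gabra3, Nlgn2 and Slc12a5 were named in addition, though not called between genotypes. Alternatives were DESeq2 1.42.0, 3 surrogate variables (sva 3.50.0), other scaling, other filters, a GC offset, a fit of the compared groups alone, a block for the replicate number, and each library left out. Replicates of a group differed by at least 4.43 times the sampling variance, so none was counted as a duplicate. Libraries held 11385380 to 27636687 counts. The members and lists were chosen with earlier results of these data known, so their counts are descriptions and no p was adjusted over a list alone. Some genes of the pathway lists are not reported here.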

Additional observations from a re-analysis of the deposited data

Results flagged for a closer look

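Among the 28 combinations of gene and group, 2 held a sample far from the other 4 by Dixon's test, which flags about 1 group in 20 by chance. Both were replicate 1 of the WT/WT mice at 12 months. It had 11108 normalized counts of Gabra6, with the others at 8202 to 8945, and 1049 of Gabra2, with the others at 684 to 753. This library also had a GC slope of -0.0802, while the other 4 of its group had 0.137 to 0.219.

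For 2 genes of the pathway lists the effect of genotype differed between ages by the interaction test of edgeR. For Slitrk3 the log2 fold change was 0.06 at 2 and 0.86 at 12 months, an interaction of 0.80 (SE 0.164, adjusted p = 0.00539), with an age change of -0.42 for WT/WT and 0.38 for 304Q/304Q mice. For Gabbr2 the interaction was -0.28 (SE 0.0662, adjusted p = 0.0207), and it was -0.25 (adjusted p = 0.0585) without replicate 2 of the 304Q/304Q mice at 2 months and -0.18 (adjusted p = 0.16) with the GC trend removed.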

How the results depend on the processing

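The calls of the members rest on small changes near the threshold. The count of members called between genotypes stayed at 0 at 2 months and for the interaction under each alternative run. At 12 months it became 1, Gabrd, with surrogate variables in DESeq2 or edgeR, and stayed at 0 without any 1 library. Those 2 fits called 734 (DESeq2) and 713 (edgeR) of 12153 tested genes lower. With age in WT/WT mice the count of 2 became 4 in DESeq2, 3 with at least 50 counts in every library, 1 in edgeR with surrogate variables, 1 with no filter, 1 with the GC trend removed and 0 in the fit of only the groups compared, and it ran from 0 to 5 with 1 library left out. DESeq2 with surrogate variables also called 2, Gabrb2 and Gabra6 in place of Gabrb1. With age in 304Q/304Q mice the count of 0 became 4 with surrogate variables in either tool, 3 with the GC trend removed and 2 with only the groups compared, and stayed at 0 without any 1 library. Of all tested genes, 504 of 12153 were lower in the reported fit and 883 (DESeq2) and 840 (edgeR) with surrogate variables. With the GC trend removed 581 of 12140 were lower, and with only the groups compared 566 of 12153. The causes of these moves were not tested. The labels number replicates 1 to 5 in every group, but 6 of 30 pairs with the same number correlated over 0.1 and 4 of 20 libraries were closest to their own number, so the numbers were not taken as pairs. With the replicate number as a block the counts stayed at 0, 0, 2, 0 and 0 over the 5 comparisons.

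Over single members, 266 of 308 values under the other settings kept direction and side of the threshold and 13 changed sign, none of them called. Gabra6 at 12 months became -0.00 and -0.01 with surrogate variables and -0.07 with the GC trend removed, which also gave -0.10 for Gabra2. For the interaction, Gabra2 became -0.07, -0.08 and -0.18, Gabrb1 -0.03, -0.04 and -0.10, with surrogate variables in DESeq2 and edgeR and with the GC trend removed. Gphn became -0.00 with surrogate variables in edgeR and -0.02 with the GC trend removed, which gave -0.01 for Gabra6. With 1 library left out, signs varied for Gabrd at 2 months (-0.07 to 0.05) and with age in WT/WT mice (-0.07 to 0.04), Gabra2 (-0.06 to 0.10), Gabrg1 (-0.26 to 0.04) and Gphn (-0.00 to 0.06) at 2 months, Gabrb1 at 12 months (-0.08 to 0.04), Gabrg1 with age in 304Q/304Q mice (-0.15 to 0.15) and the interaction of Gphn (-0.01 to 0.05). Of the pathway values, 256 of 322 under other settings and 599 of 720 with 1 library left out kept their call. Over all tested genes, the 10 calls between genotypes at 2 months became 22 in DESeq2, 52 and 38 with surrogate variables in DESeq2 and edgeR, 17 with no filter or the GC trend removed and 5 with only the groups compared. With age in WT/WT mice 1378 became 857 with surrogate variables in edgeR and 754 with only the groups compared, with age in 304Q/304Q mice 875 became 1659 and 1537 with surrogate variables, and for the interaction 248 became 395 in DESeq2 and 418 with surrogate variables there. Removing the GC trend turned 740 higher and 638 lower with age in WT/WT mice into 397 and 571, 79 and 169 for the interaction into 108 and 120, and 618 and 876 between genotypes at 12 months into 776 and 746. With 5 mice per group, the interval of Gabrg1 between genotypes at 12 months reached a fold of 1.68.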
